A study of Mus musculus with 8 samples.

Results

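Neurons build their axons, dendrites and synapses with a set of proteins, some of which other cells make too. They include tubulins and the proteins bound to microtubules, neurofilaments, growth cone proteins, the proteins of synaptic vesicles and of their fusion with the membrane, scaffolds beneath the receiving side of the synapse, and proteins of dense-core secretory granules. A list of 43 such genes was followed in FlpIn-3T3 mouse fibroblasts that carry Pax6, Pax6(5a) or no insert. The genes were chosen by name for what they do in neurons, with earlier results of these arrays known. All probes that the array's gene table assigns to these genes were taken. No probe stood for 3 of the genes, Ina, Syt11 and Vgf, which left 40 genes on 60 probes, of 15967 genes on the array.

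Pax6 is a transcription factor of eye, brain and pancreas development that binds DNA through a paired domain and a homeodomain. Pax6(5a) is its splice form with a short insertion in the paired domain, which changes the sequences it prefers. In fibroblasts and other non-neuronal cells many genes of neurons are held down by the repressor REST, and Pax6 acts in neural precursors, where these genes are switched on as cells leave the cycle.

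The FlpIn-3T3 line is an embryonic fibroblast line with a single target site for inserts. The FlpIn-3T3 Pax6 line carries the mouse Pax6 cDNA and was read at passages 9 and 15 (n = 2 arrays). The FlpIn-3T3 Pax6(5a) line carries the mouse Pax6(5a) cDNA and was read at passage 8, in 2 RNA preparations, and at passage 13 (n = 3). The control line is the parent line with no Pax6 or Pax6(5a), read at passage 13, in 2 preparations, and at passage 19 (n = 3). Both cDNAs stood in the vector pEF5/FRT/V5-DEST. Both insert lines were grown with hygromycin (150 µg/ml) and the control line with Zeocin (100 µg/ml), so that insert and drug cannot be told apart, and passage differs between the lines too. Each insert is represented by 1 line, and the labels do not say that preparations came from separate dishes. The p-values thus measure the spread between the arrays of a line. It joins the spread between passages with that between preparations of 1 passage, which may be technical. It is not a spread between independent lines.

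Signals are given as log2 of the quantile-normalized intensity, by line and in order of passage. A probe counted as detected where its detection p-value was under 0.01. The lowest signal detected per array was 6.25 to 6.34 on the log2 scale, and 10083 to 10685 of 24613 probes were detected per array. Different probes differ in efficiency, so differences are given between lines for 1 probe, and no level of a gene is set against that of another. A gene stands for its probe with the highest mean signal. A difference passed the threshold where limma gave an adjusted p under 0.01 and a change of 1.5-fold or more, with Benjamini-Hochberg adjustment over all 24613 probes.

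The cells carried the markers of fibroblasts in every line. Of 12 fibroblast markers 9 were detected on all 8 arrays, among them Col1a1, Col1a2, Vim and Thy1, and 1, Postn, on none. The mean signal of this list was 9.64 to 9.66 on the Pax6 arrays and 9.76 on the Pax6(5a) arrays, against 9.81 to 10.08 on the control arrays. Fn1, Pdgfra and Pdgfrb were lower in the Pax6 line, and Lum and Dcn in the Pax6(5a) line. Of 11 measured genes that define neurons, 8 were detected on no array, including Gad1, Slc32a1 and Syt1, Slc17a6 and Snap25 on some and Tubb3 on all. Of these only Slc17a6 passed the threshold, with a log2 fold change of 0.95 for Pax6(5a) against control. All 4 oligodendrocyte and Schwann cell markers and 3 of 4 astrocyte markers (Gfap, Aqp4 and S100b) were also undetected throughout. The remaining astrocyte marker was detected on all arrays. Of 5 neuronal precursor markers 3 were detected on no array and 0 on all. Of 6 neuroendocrine markers 5 were detected on no array and 1 on all. The part of these markers in the results was not tested. The array's probe for Pax6 was not detected on any array (5.50 to 5.83), and whether it lies within the inserted cDNA is not known, so it does not check the labels. The paper reports each isoform in its own line and neither in the control line by RT-PCR, and both proteins by Western blot.

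The neuronal genes were detected in shares near those of all genes on the array. Of the 40, 17 were detected on all 8 arrays, 17 on none and 6 on some. In percent, 42.5% were detected on all arrays and 42.5% on none, and of all 15967 genes 43.6% were detected on all and 46.7% on none. The map of all 40 genes shows the signals and detections.

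**Figure D1:**
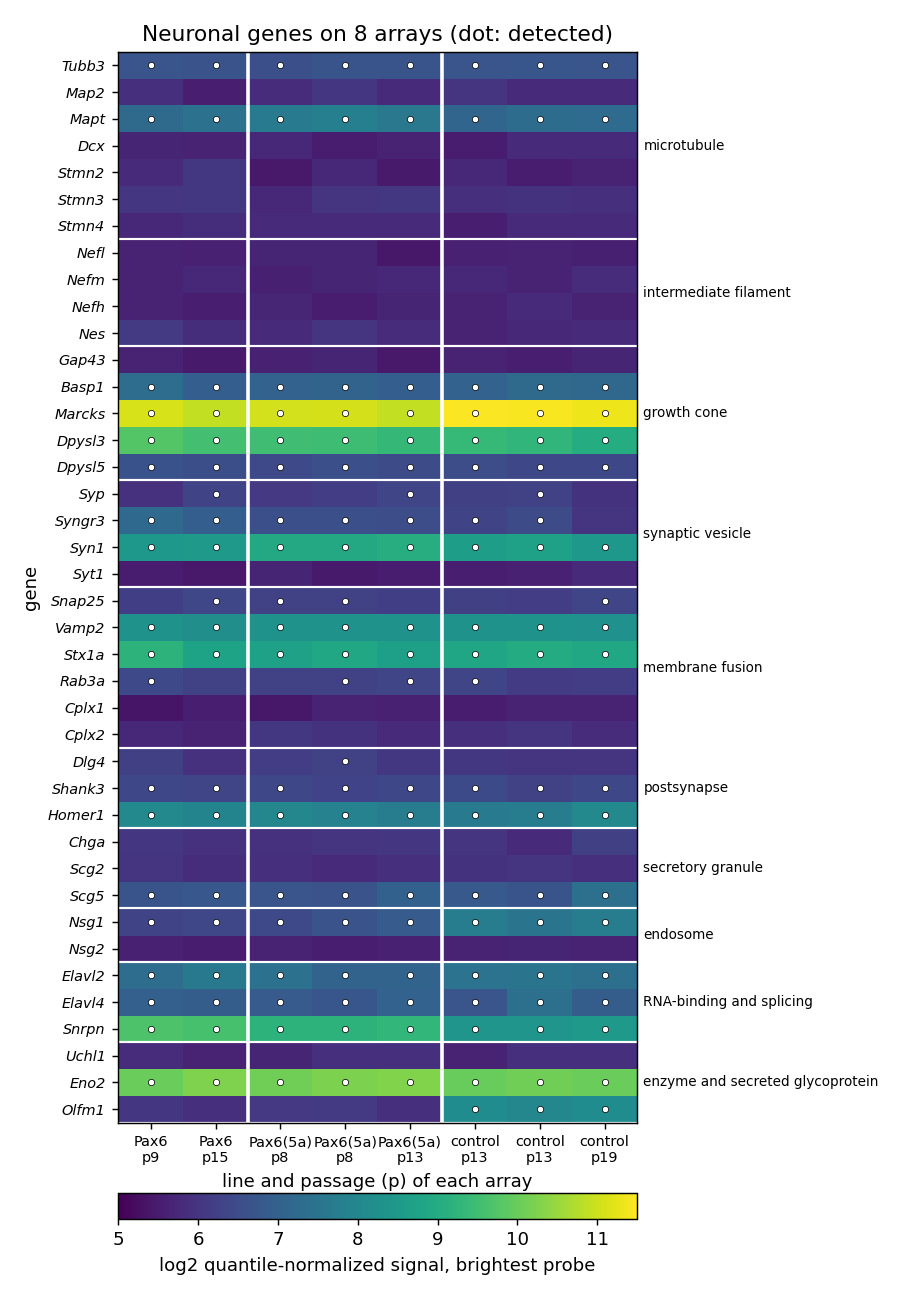
Log2 quantile-normalized signal (colour) of the brightest probe of 40 neuronal genes (rows, grouped by role) on 8 arrays (columns, by line and passage). White dots mark detection of that probe, and colours are to be read along a row. Olfm1 was detected on the 3 control arrays only, and 17 genes had no dot on any array.

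Much of the cytoskeleton of neurons was not detected. None of the 4 measured intermediate filament genes was detected on any array: the neurofilament subunits Nefl, Nefm and Nefh, and Nes, the filament of neural precursors. Of 7 microtubule genes, Map2 of dendrites, Dcx of migrating neurons and the tubulin-binding stathmins Stmn2, Stmn3 and Stmn4 were undetected throughout. Tubb3, the beta-tubulin used as a marker of neurons, and Mapt, which encodes tau, were detected on all 8 arrays. Tubb3 had signals of 6.72 and 6.65 in the Pax6 line and 6.60, 6.69 and 6.68 in the Pax6(5a) line, against 6.70, 6.74 and 6.71 in the control line. The Pax6 line overlapped both other lines and the Pax6(5a) and control lines nearly met, with log2 fold changes of -0.04 (95% interval -0.21 to 0.13) for Pax6 and -0.07 (-0.22 to 0.09) for Pax6(5a) against control.

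The other undetected genes were Gap43 of the growth cone, Syt1 (the calcium sensor of vesicle release), Cplx1 and Cplx2 (complexins, which clamp and trigger fusion), Chga and Scg2 (granins of secretory granules), Nsg2 of endosomes and Uchl1, a ubiquitin hydrolase abundant in neurons. The 26 probes of the 17 undetected genes had signals of 5.12 to 6.23 in all lines. Their largest log2 fold change against control had a size of 0.29, and none passed the threshold. A signal below detection sets only an upper bound on the RNA, so a change at these levels was not detectable.

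The 6 genes detected on some arrays were Syngr3 on 7, Snap25 and Rab3a on 4, Syp and Olfm1 on 3 and Dlg4 on 1. Syp, a membrane protein of synaptic vesicles, lay between 5.94 and 6.35. Snap25, a SNARE protein, lay between 6.18 and 6.38, and Rab3a, the GTPase of synaptic vesicles, between 6.14 and 6.43. Dlg4, which encodes PSD-95 of the postsynaptic density, lay between 5.92 and 6.29. These 4 genes lay close to the limit of detection or below it, and none of them was detected on every array of a line. Syp, Snap25 and Rab3a were detected on at least 1 array of each line, and Dlg4 on 1 Pax6(5a) array only.

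Of the 40 genes 4 (10%) passed the threshold between the Pax6 and control lines, where 2.45% of all genes did. Syngr3 and Snrpn were higher in the Pax6 line, and Nsg1 and Olfm1 were lower. Between the Pax6(5a) and control lines 3 of 40 (7.5%) passed, where 1.2% of all genes did. Snrpn was higher, and Nsg1 and Olfm1 were lower. At the stricter threshold (adjusted p under 0.001 and 1.7-fold) 3 of 40 passed for Pax6 and 3 of 40 for Pax6(5a), all but Syngr3, where 1.07% and 0.426% of all genes did. The 2 comparisons share the control arrays. The genes had been listed with earlier results of these arrays known, so these shares are a description. The median log2 fold change of the 40 genes was -0.02 for Pax6 and -0.01 for Pax6(5a), and that of all genes was 0.00 in both.

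**Figure D2:**
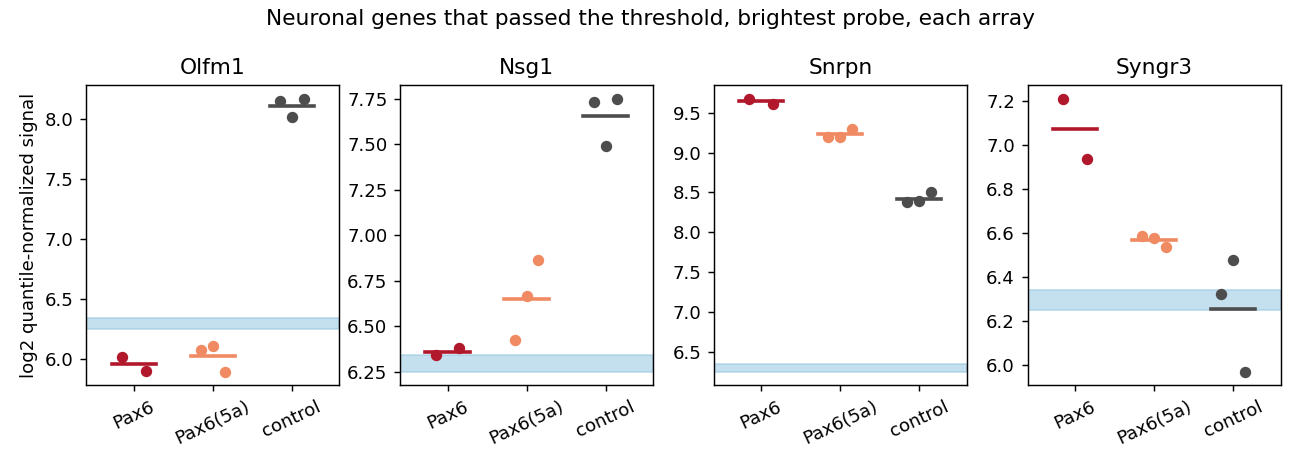
Log2 quantile-normalized signal of the 4 genes that passed the threshold in either comparison with control, 1 point per array and a bar at the mean of each line. The blue band spans the limits of detection of the 8 arrays (6.25 to 6.34). Both insert lines lie below the band for Olfm1, and the vertical axes differ between genes and do not start at 0.

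Olfm1, a secreted glycoprotein of the olfactomedin family made in brain and neural crest, had the largest difference among the 40 genes. It had signals of 6.02 and 5.90 in the Pax6 line and 6.08, 6.11 and 5.89 in the Pax6(5a) line, against 8.15, 8.02 and 8.17 in the control line. It was detected on all 3 control arrays and on none of the 5 arrays of the insert lines. The log2 fold change was -2.15 (SE 0.0944, adjusted p = 1.07e-07) for Pax6 and -2.09 (SE 0.0844, adjusted p = 3.95e-08) for Pax6(5a). Since both insert lines lay below detection, the fold is a bound, the control mean over the lowest signal detected on each array. Against control, the Pax6 line had at least 3.45-fold lower Olfm1 signal and the Pax6(5a) line at least 3.58-fold lower. With the neqc background correction these log2 fold changes were -3.22 and -3.11. The second Olfm1 probe was undetected on all 8 arrays (5.57 to 5.83) and gives no further measure. In bulk RNA, fewer cells with the transcript and less transcript per cell cannot be told apart.

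The bases before the annotated Olfm1 start sites are shown because Olfm1 was detected in the control line and in neither insert line. RefSeq (GRCm38.p6) gives promoter windows for 29 of the 43 genes, each of 250 bases before and 50 after a start site. The upper stretch is chr2:28192843-28193092 and the lower chr2:28205439-28205688, both on the plus strand. Capitals mark a match, with up to 2 mismatches and on the opposite strand, to a single arm of 5aCON, the consensus that Pax6(5a) prefers, at position -72 from the start.
Olfm1 upstream start: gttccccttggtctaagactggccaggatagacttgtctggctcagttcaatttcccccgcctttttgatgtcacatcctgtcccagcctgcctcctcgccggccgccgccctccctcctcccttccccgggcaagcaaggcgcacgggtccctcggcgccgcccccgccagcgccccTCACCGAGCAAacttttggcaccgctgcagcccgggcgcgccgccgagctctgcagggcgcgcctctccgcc
Olfm1 downstream start: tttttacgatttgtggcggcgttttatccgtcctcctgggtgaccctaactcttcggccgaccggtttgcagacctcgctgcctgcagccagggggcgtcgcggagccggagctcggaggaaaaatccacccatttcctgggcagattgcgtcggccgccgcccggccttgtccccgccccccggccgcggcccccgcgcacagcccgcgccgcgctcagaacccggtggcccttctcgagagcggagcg
Both stretches had a GC content of 69.2%, with 23 CpG sites in the first and 32 in the second, against medians of 52.4% and 6 over 32817 windows. Such a match to 5aCON was in 20.8% of all windows. The 29 genes have 48 windows, and 6 of the genes (20.7%) had a match in any of theirs: Olfm1, Snrpn, Chga, Dcx, Elavl2 and Uchl1. The first share counts windows and the second counts genes. Of these 6, Chga, Dcx and Uchl1, were undetected on all arrays. TTCACGC, the core of the Pax6 paired domain site, was in 1.26% of all windows and in that of Tubb3 alone among the 29, searched on both strands. TAATNNNATTA, a dimer site of paired-type homeodomains (0.485% of all windows), and AGCACCNNGGACAG, the core of the REST site (0.0518%), had no match in the windows of these genes. A match is a description of the letters and no evidence of binding.

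Nsg1, a membrane protein of neuronal endosomes that sorts receptors back to the surface, was lower in both insert lines. Its signals were 6.34 and 6.38 in the Pax6 line and 6.42, 6.67 and 6.87 in the Pax6(5a) line, against 7.73, 7.49 and 7.75 in the control line. No array of either insert line reached the control range, and the Pax6 signals were within 0.05 of the limit of detection. The log2 fold change was -1.30 (2.46-fold lower, SE 0.123, adjusted p = 3.58e-05) for Pax6 and -1.01 (2.01-fold lower, SE 0.11, adjusted p = 0.000236) for Pax6(5a). With neqc it was -1.95 for Pax6. Nsg2, the relative of Nsg1 in the same compartment, was undetected on all arrays.

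Snrpn, which encodes the splicing protein SmN of neurons and is expressed from the paternal allele, was higher in both insert lines. Its signals were 9.68 and 9.61 in the Pax6 line and 9.19, 9.19 and 9.30 in the Pax6(5a) line, against 8.38, 8.39 and 8.50 in the control line. The 3 lines did not overlap. The log2 fold change was 1.22 (2.33-fold higher, SE 0.0838, adjusted p = 2.61e-06) for Pax6 and 0.81 (1.75-fold higher, SE 0.075, adjusted p = 5.86e-05) for Pax6(5a). A second, dimmer Snrpn probe had signals of 7.31 and 6.59 in the Pax6 line and 6.89, 7.01 and 6.77 in the Pax6(5a) line, against 6.43, 6.16 and 6.41 in the control line. Its log2 fold changes of 0.62 (adjusted p = 0.0462) and 0.56 (adjusted p = 0.0589) ran the same way and did not pass the threshold.

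Snurf is read from the same bicistronic transcript as Snrpn and was on the list of related genes. Its signals were 9.10 and 8.59 in the Pax6 line and 8.43, 8.49 and 8.01 in the Pax6(5a) line, against 7.84, 7.77 and 7.71 in the control line. Again no insert array reached down to the control range. Its log2 fold change was 1.07 (2.11-fold, adjusted p = 0.000975) for Pax6, which passed, and 0.54 (adjusted p = 0.0475) for Pax6(5a), which did not. Snrpb, the gene of the closely related protein of all cells, lay between 12.41 and 12.57, with adjusted p = 0.696 for Pax6 and 0.903 for Pax6(5a). Ndn, another paternally expressed gene of the same imprinted region, was undetected on all arrays.

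The stretch before the start site that RefSeq gives to both Snrpn and Snurf (GRCm38.p6, chr7:60005200-60005449, minus strand) is shown because both genes were higher in the Pax6 line. It has no capitals, as none of the motifs searched was found in it, and the Snrpn matches to 5aCON counted above lay just after other, more distant start sites.
Snrpn and Snurf shared start: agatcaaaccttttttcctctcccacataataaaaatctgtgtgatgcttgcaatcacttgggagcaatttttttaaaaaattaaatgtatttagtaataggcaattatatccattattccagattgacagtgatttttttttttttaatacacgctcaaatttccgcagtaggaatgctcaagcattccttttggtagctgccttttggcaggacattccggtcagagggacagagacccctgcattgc
Its GC content was 36.8%, with 3 CpG sites, below the medians of all windows.

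Syngr3, a synaptogyrin of synaptic vesicles, was higher in the Pax6 line. Its signals were 7.21 and 6.93 in the Pax6 line and 6.58, 6.58 and 6.54 in the Pax6(5a) line, against 6.32, 6.47 and 5.97 in the control line, of which the last was below detection. The Pax6 arrays lay above all others. The log2 fold change was 0.82 for Pax6 (1.76-fold higher, SE 0.131, adjusted p = 0.00219) and 0.31 for Pax6(5a) (interval 0.06 to 0.57, adjusted p = 0.202). The Pax6 call was lost with neqc (1.36, adjusted p = 0.0239), when the repeat preparations of a passage were averaged (0.89, adjusted p = 0.0121) and without the Pax6 array of passage 9 (0.69, adjusted p = 0.0349).

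Beyond Syngr3, the synaptic vesicle and fusion genes with signals well above detection showed no difference that passed. Syn1, which tethers synaptic vesicles to actin, had signals of 8.47 and 8.52 in the Pax6 line and 8.93, 8.93 and 9.05 in the Pax6(5a) line, against 8.61, 8.72 and 8.46 in the control line. The Pax6(5a) arrays lay above those of the other lines, with a log2 fold change against control of 0.38 (adjusted p = 0.0253). For Pax6 it was -0.11 (adjusted p = 0.678). The second Syn1 probe gave 0.28 (adjusted p = 0.117) for Pax6(5a) and 0.12 (adjusted p = 0.655) for Pax6. Vamp2, the SNARE protein of the vesicle, had signals of 8.35 and 8.22 in the Pax6 line and 8.33, 8.34 and 8.30 in the Pax6(5a) line, against 8.35, 8.32 and 8.30 in the control line. The lines overlapped, with log2 fold changes of -0.04 (-0.21 to 0.13) and -0.00 (-0.16 to 0.15). Stx1a, the SNARE protein of the target membrane, had 9.19 and 8.76 in the Pax6 line and 8.72, 8.89 and 8.68 in the Pax6(5a) line, against 8.86, 8.99 and 8.88 in the control line. All 3 lines overlapped, with log2 fold changes of 0.06 (-0.19 to 0.32) and -0.15 (-0.38 to 0.08).

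Among the growth cone genes, Marcks and Dpysl3 came closest to the threshold. Marcks, a protein kinase C substrate that links the membrane to actin, had signals of 11.11 and 10.90 in the Pax6 line and 11.05, 11.07 and 10.90 in the Pax6(5a) line, against 11.47, 11.44 and 11.35 in the control line. All 5 insert arrays lay below the 3 control arrays. The log2 fold change was -0.41 in both comparisons (adjusted p = 0.0197 for Pax6 and 0.0164 for Pax6(5a)), and neither passed. Dpysl3, a collapsin response mediator that acts in axon guidance, had 9.77 and 9.55 in the Pax6 line and 9.50, 9.49 and 9.33 in the Pax6(5a) line, against 9.37, 9.27 and 9.02 in the control line. The Pax6 arrays lay above the control arrays and the Pax6(5a) arrays overlapped them. The log2 fold changes were 0.44 (adjusted p = 0.0363) and 0.22 (adjusted p = 0.329). With passage number as a covariate they were 0.32 and 0.0005. Basp1, another substrate of the growth cone membrane, lay between 6.93 and 7.32 and Dpysl5 between 6.41 and 6.63, with adjusted p of 0.438 or more against control.

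Mapt had its highest signals in the Pax6(5a) line. They were 7.24 and 7.42 in the Pax6 line and 7.64, 7.80 and 7.61 in the Pax6(5a) line, against 7.12, 7.30 and 7.27 in the control line. The Pax6(5a) arrays lay above all others, with a log2 fold change against control of 0.46 (0.27 to 0.64, adjusted p = 0.0105), which missed both parts of the threshold. A second Mapt probe was detected on all 3 Pax6(5a) arrays, on 1 control array and on no Pax6 array, with 0.23 (adjusted p = 0.201).

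Among the remaining genes detected on all arrays, Eno2, the neuronal enolase of glycolysis, had signals of 10.01 and 10.25 in the Pax6 line and 10.08, 10.22 and 10.27 in the Pax6(5a) line, against 9.98, 10.09 and 10.01 in the control line. Homer1, a scaffold that ties glutamate receptors to other postsynaptic proteins, had 8.07 and 7.93 in the Pax6 line and 8.01, 7.87 and 7.75 in the Pax6(5a) line, against 7.67, 7.74 and 8.05 in the control line. The lines overlapped for both genes. Shank3, a scaffold of the same structure, lay between 6.27 and 6.46. Scg5, the granule protein 7B2 that guards a prohormone convertase, lay between 6.65 and 7.40, with its highest signal in the control array of passage 19. Elavl2 and Elavl4, RNA-binding Hu proteins of neurons, lay between 7.07 and 7.62 and between 6.71 and 7.39. Detection of Elavl4 and Shank3 rests on the brightest probe alone. Their other probes were undetected on every array, with signals of 5.61 to 5.99 for Elavl4 and 5.67 to 5.97 for Shank3. Homer1 had a further probe detected on all arrays and others detected on none. For none of these 6 genes did an adjusted p against control fall below 0.274.

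Of the 17 genes detected on all arrays, 15 did not pass in either comparison with control. For Pax6 the 95% interval of 12 of these 15 lay within a 1.5-fold change in both directions, the exceptions being Marcks, Dpysl3 and Scg5. For Pax6(5a) it did so for 13 of 15, the exceptions being Mapt and Marcks. The plot of log2 fold changes with their intervals gives all 19 genes.

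**Figure D3:**
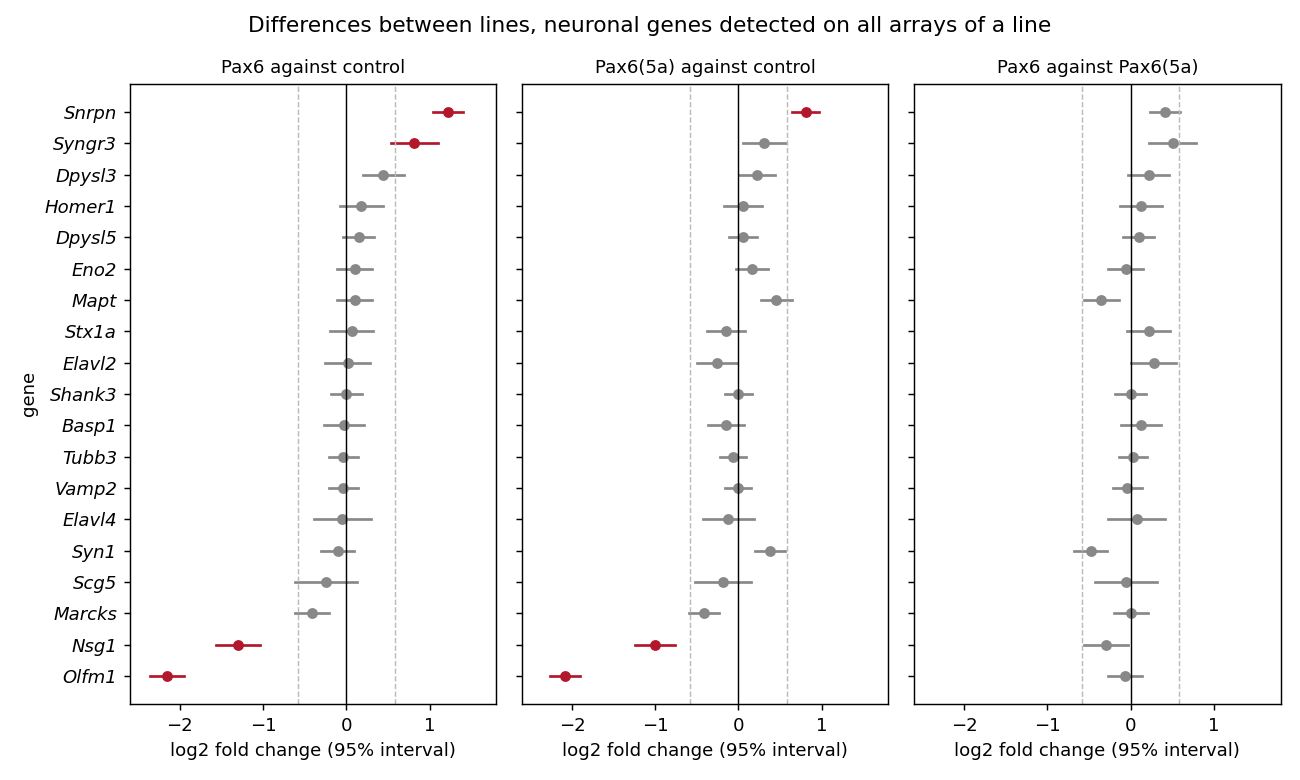
Log2 fold change (points) with its 95% interval (lines) of the 17 neuronal genes detected on all 8 arrays and of Syngr3 and Olfm1, in the 3 comparisons. Red marks genes past the threshold and dashed lines a 1.5-fold change. The Olfm1 values against control are from signals below detection in the insert lines, so their size is that of the measured signals and not of the RNA.

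Each isoform is represented by a single line, and the Pax6 and Pax6(5a) lines share no passage, so isoform and line cannot be told apart. Between these lines 0 of the 40 genes (0%) passed in limma, where 0.676% of all genes did and 0.207% did at the stricter threshold. For a list of 40 genes, 0 is near that share. An unadjusted p under 0.05 was found for 8 of them, and 2, Syn1 and Snrpn, an adjusted p under 0.05. Syn1 was lower in the Pax6 line (log2 fold change -0.48, adjusted p = 0.0214), and its second probe gave -0.16 (adjusted p = 0.615). Snrpn was higher in the Pax6 line (0.42, interval 0.23 to 0.60, adjusted p = 0.0255), and its second probe gave 0.06 (adjusted p = 0.948). The Syngr3 difference was 0.51 (0.22 to 0.79, adjusted p = 0.0858), and it passed with passage number as a covariate (0.61, adjusted p = 0.003). That of Nsg1 was -0.29 (-0.56 to -0.03, adjusted p = 0.364), and that of Mapt -0.35 (adjusted p = 0.108). Olfm1 was undetected in both lines and no fold is given in the text.

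Passage differed between the lines, and only passage 13 was read in both the Pax6(5a) and the control line. At that passage the Pax6(5a) signal minus the mean of the 2 control preparations was -2.19 for Olfm1, -0.74 for Nsg1 and 0.92 for Snrpn on the log2 scale, in the direction of the whole comparison for all 3. It was -0.55 for Marcks, 0.39 for Syn1, 0.14 for Syngr3 and 0.009 for Dpysl3. The Pax6 line shares no passage with the others. Within a line, the later minus the earlier passage was -0.28, -0.04 and -0.43 for Syngr3 in the Pax6, Pax6(5a) and control lines, lower at the later passage in each. For Dpysl3 it was -0.22, -0.17 and -0.30, also lower in each. For Nsg1 it was 0.04, 0.32 and 0.14, for Snrpn -0.07, 0.11 and 0.12 and for Olfm1 -0.12, -0.20 and 0.09, all smaller than the differences that passed the threshold. These values rest on 1 or 2 preparations each and carry no test.

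**Figure D4:**
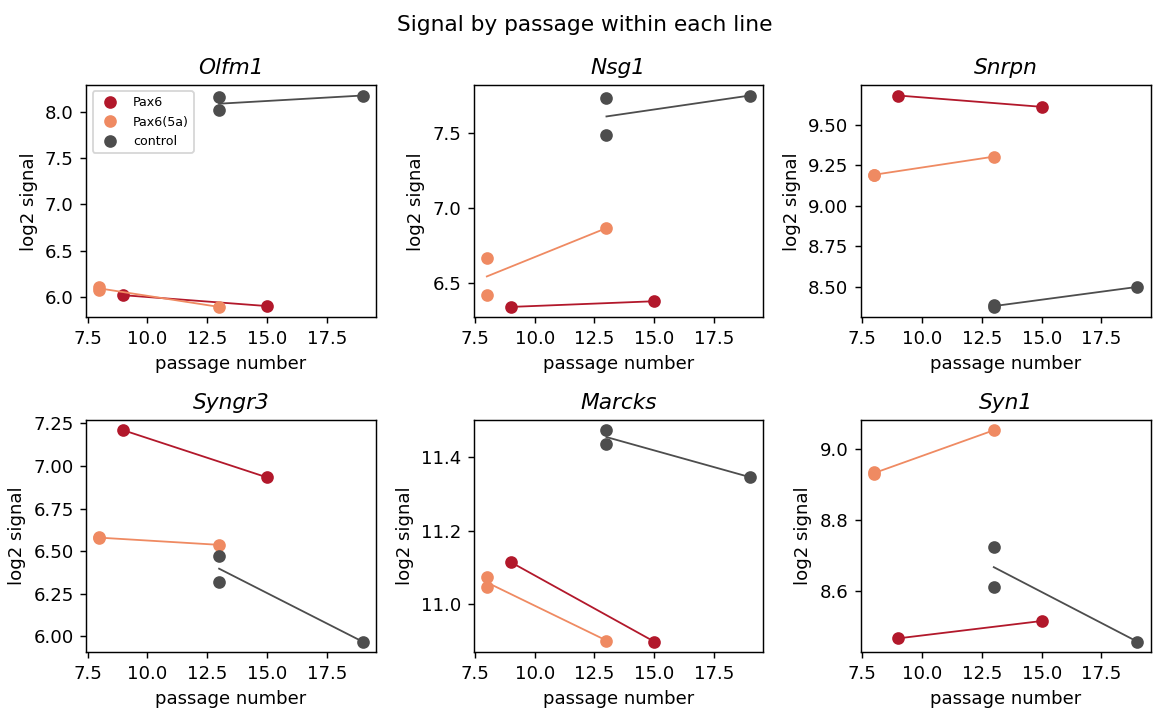
Log2 quantile-normalized signal against passage number for 6 genes, 1 point per array, coloured by line. Lines join the means of the earlier and the later passage, and vertical axes differ between genes. The Olfm1, Nsg1 and Snrpn signals of the Pax6(5a) and control lines stay apart at passage 13, which both lines share.

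Beside the 40 genes, 266 other genes of the same pathways were listed by function, of which 229 were measured. Of these, 92 were detected on all arrays and 111 on none. In the Pax6 line 3 were higher than in the control line and 1 was lower, where 1.03% and 1.42% of all genes were. In the Pax6(5a) line 3 were higher and 2 lower, where 0.551% and 0.651% of all genes were. Between the Pax6 and Pax6(5a) lines 1 was higher and 0 were lower, where 0.251% and 0.426% of all genes were. The list medians were 0.02, -0.00 and 0.03, against 0.00 for all genes in each. Of 31 other microtubule genes 20 were detected on all arrays, and of 32 other synaptic vesicle genes 6 were. None of 17 growth cone genes and none of 6 intermediate filament genes passed in any comparison. For lists of this size, 0 is near the shares of all genes.

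Those higher in the Pax6 line, beside Snurf, were a tubulin and a glutamate receptor. Tubb2b, a beta-tubulin needed for the migration of cortical neurons, had signals of 11.60 and 11.83 in the Pax6 line, against 11.15, 10.90 and 11.29 in the control line (1.52-fold, adjusted p = 0.00734). It was at 11.35, 11.33 and 11.21 in the Pax6(5a) line (log2 fold change against control 0.18, adjusted p = 0.482). Gria3, an AMPA receptor subunit, had 8.18 and 7.90 in the Pax6 line, against 7.39, 7.31 and 6.98 in the control line (1.76-fold, adjusted p = 0.00134). It was at 7.06, 7.12 and 6.99 in the Pax6(5a) line, and the Pax6 line was 1.98-fold above it (adjusted p = 0.00119).

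Another 3 were higher in the Pax6(5a) line. Slc17a6, the vesicular glutamate transporter VGLUT2, averaged 7.35 ± 0.30 in the Pax6(5a) line and 6.40 ± 0.12 in the control line (SD, n = 3 each), in which 1 array was below detection (1.94-fold, adjusted p = 0.00175 in limma). Cck, a neuropeptide precursor, had 12.92, 12.89 and 13.09 in the Pax6(5a) line, against 11.69, 11.90 and 12.49 in the control line (1.92-fold, adjusted p = 0.00584). Napa, the SNAP adaptor that lets NSF take SNARE complexes apart in all cells, was 1.5-fold higher (adjusted p = 0.00254), just at the fold threshold. In the Pax6 line Slc17a6 (0.67, adjusted p = 0.0199) and Napa (0.48, adjusted p = 0.0112) had log2 fold changes of the same sign that did not pass, and Cck had -0.07 (adjusted p = 0.914).

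The lower genes were regulators. Ebf1, a helix-loop-helix factor of B cells and neurons, had signals of 8.09 and 8.29 in the Pax6 line and 8.44, 8.45 and 8.74 in the Pax6(5a) line, against 9.24, 9.14 and 9.23 in the control line. The decrease was 2.03-fold for Pax6 (adjusted p = 8.43e-05) and 1.59-fold for Pax6(5a) (adjusted p = 0.00158). Rcor1, which encodes CoREST, a partner of REST in repression, had 8.80, 8.79 and 8.97 in the Pax6(5a) line, against 9.56, 9.75 and 9.51 in the control line (1.68-fold lower, adjusted p = 0.000387). In the Pax6 line it was at 9.45 and 9.35 (log2 fold change -0.20, adjusted p = 0.316). Rest itself was undetected on all arrays (5.35 to 5.65), which sets only an upper bound on its RNA.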

How the data were processed

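RNA of 8 preparations was amplified, biotinylated and read on Illumina Mouse Ref-8 V1.1 arrays, which a core facility ran. The authors deposited signal intensities, not normalized and quantile normalized, with detection p-values. The reading software, any background correction and the way the detection p-values were computed are not given in the sources used here. The deposited intensities were quantile normalized without background correction and taken to the log2 scale, which equals the log2 of the deposited normalized values within 7.2e-10. Of 24613 probes 20984 name 1 gene, 1 names several and 3628 none.

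Lines were compared by a single limma model (version 3.58.1, R 4.3.3) that held all 8 arrays, a mean per line and no covariate, at the thresholds of the study (adjusted p under 0.01 and 1.5-fold, and more strictly under 0.001 and 1.7-fold). The number of arrays limits the precision. The script was tested on simulated data. A gene counts as detected where any of its probes is. The genes and lists were chosen with earlier results of these data known. Full statistics are given for genes past the threshold, those detected throughout 1 line and in none of another, and the 8 with the highest signals among those detected throughout (a choice of bright probes, not a ranking of RNA levels), and for list genes past the threshold, at most 3 per list. Mapt, a gene outside this rule, was chosen after its values were seen, as were Tubb3 and Snrpb. Alternatives covered background correction (neqc, offset 16, and normexp, offset 50), median scaling, a detection filter, the variance model, the arrays fitted, passage, repeat preparations, the replicate block and each array left out. Figures were drawn with matplotlib 3.10.9 in Python 3.11.15.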

Additional observations from a re-analysis of the deposited data

How the results depend on the processing

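The count of genes past the threshold was 3 to 4 for Pax6 against control over 19 alternatives, and 3 with neqc, with preparations of the same passage averaged, at the stricter threshold and without the Pax6 array of passage 9, in each of which Syngr3 was the gene lost. For Pax6(5a) against control it was 3 in all 20 alternatives. For Pax6 against Pax6(5a) it was 0, and 1 (Syngr3) with passage number as a covariate. With each array left out in turn the counts were 3 to 4, 3 and 0. Of 572 alternative values of the named log2 fold changes, 568 stayed on their side of the threshold, 3 lost the call and 1 gained it, all 4 of Syngr3. Only 122 of the 572 belong to differences that had passed, and the 3 lost calls are among these 122. Many of the others lay far from the threshold, so that they stayed there says little. The sign changed in 20 of the 572, all of differences that had not passed (Eno2, Homer1, Marcks, Stx1a and Vamp2), and in 0 of the 122. Against control, adjusted p-values reached at most 5.37e-05 for Olfm1, 0.00969 for Nsg1 and 0.00591 for Snrpn. Over all probes the count past the threshold varied more. For Pax6(5a) against control it was 238, against 57 with preparations of the same passage averaged and 501 with passage number as a covariate. For Pax6 against control these counts were 496, 295 and 705. With neqc they were 149 for Pax6(5a) and 351 for Pax6. The shares of all genes are from the main fit alone. The related genes, Napa, Tubb2b and Cck among them, were not followed over the alternatives. The number of genes detected on all arrays was 17 to 19 and on none 16 to 18, with detection at p under 0.05, the brightest probe alone, or each array left out, the last chosen after seeing the data.

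The replicate block for the numbers shared by the Pax6(5a) and control arrays left the count at 3 and changed no call. Same-numbered arrays had correlations of their deviations of 0.205 and 0.267, against 0.186 and 0.133 for the crossed numbers. They come from different passages and share only a number.

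Dim probes limit the fold sizes. Olfm1, Nsg1 in the Pax6 line and Syngr3 in the control line lay near or below detection, and their fold sizes differed most between background corrections. Over the alternatives the log2 fold change of Olfm1 ran between -3.22 and -1.95 for Pax6 and between -3.11 and -1.90 for Pax6(5a), and that of Nsg1 between -1.95 and -1.18 and between -1.43 and -0.85. Snrpn, far above detection, ran only between 1.17 and 1.33 and between 0.77 and 0.89.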
